A study of Mus musculus with 18 samples.

Results

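Periportal zonation genes are genes that hepatocytes near the portal vein express more than hepatocytes near the central vein. The 10 genes described here, Hal, Sds, Sdsl, Gls2, Etnppl, Cdh1, Aldh1b1, Upp2, Cyp2f2 and Pigr, were chosen by name from a table of 54532 genes. Earlier results of these data were known when they were chosen. Each gene had 1 row in the table, and all 10 passed the filter on low values, a mean of at least 1 FPKM (fragment counts scaled by gene length and by a total per mouse) over 18 mice. The filter left 10216 genes for the tests.

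The livers came from male C57BL/6J mice, 6 per group, that were 6 weeks old when housed and began the diets after acclimatization. Normal control mice (NC) ate normal chow. HFD mice ate a high-fat diet for 14 weeks and then received saline, and SZ-A mice received Ramulus Mori (mulberry twig) alkaloids instead, both while staying on the high-fat diet. The series text gives this treatment as 8 weeks, the sources differ on its length, and the dose and route of the sequenced SZ-A mice are not given in the sources used here. The mice were fasted overnight before tissue was taken. No group carries a genetic change according to the labels. By the labels NC and HFD differ in diet, and HFD and SZ-A in the treatment. Whether NC mice also received saline is not plainly stated in the sources used here, so NC and HFD may differ in handling too.

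Each mouse had between 17163191 and 20493907 fragments on genes. The mouse NC6 carries a diet label that contradicts its title, and it was kept in NC by the title. For the 8 genes that passed the test in HFD against NC below, NC6 lay within the range of the other NC mice for 7 genes and within the HFD range for 2, Sds and Cdh1. That test counted NC6 as an NC mouse, so these values are no independent check of its group. Markers of hepatocytes summed to 39870 to 58520 FPKM in NC mice. The same sum was 25950 to 44480 FPKM with HFD and 32310 to 55600 with SZ-A, against 15.7 to 48.9 FPKM for markers of bile duct cells over all mice, so the tissue matched its label. Markers of Kupffer cells and macrophages summed to 129.7 to 266 FPKM in NC mice, and to 251.5 to 411.5 with HFD and 222.2 to 318.8 with SZ-A. Markers of stellate cells summed to 42.8 to 60.6, 51.4 to 103.2 and 47.2 to 63.8 FPKM in the same order. The part of these other cells in the results below was not tested. In whole liver, fewer periportal cells and less RNA per cell cannot be told apart.

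Blood enters the liver lobule at the portal vein and leaves at the central vein, and hepatocytes along this path divide the work of metabolism among them. Periportal hepatocytes are known for amino acid breakdown, ureagenesis and gluconeogenesis, and pericentral hepatocytes for glutamine synthesis and much of drug metabolism. Wnt/β-catenin signaling is known to maintain the pericentral program, and glucagon is known to favor the periportal program. The genes fall into nitrogen-releasing enzymes (Hal, Sds, Sdsl, Gls2 and Etnppl), other enzymes (Aldh1b1, Upp2 and Cyp2f2) and proteins of the cell surface (Cdh1 and Pigr). This grouping was made for the description, with earlier results of these data known, and was not tested as a set.

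The sequence before a gene's start is where general and tissue-specific transcription factors can bind, and it is shown here for 2 genes that fell in HFD mice, Hal and Etnppl, and 2 that rose, Aldh1b1 and Upp2. RefSeq promoter sequences (build GRCm38.p6) matched 6 of the 10 genes, with 8 starts. Each line holds the 250 bases before a start, 5′ to 3′ on the plus strand, and capitals mark a match on either strand to any of 6 short motifs. Hal spans chr10:93488518-93488767, Etnppl chr3:130617198-130617447, Aldh1b1 chr4:45798772-45799021 and Upp2, at its downstream start, chr2:58754934-58755183.
Hal: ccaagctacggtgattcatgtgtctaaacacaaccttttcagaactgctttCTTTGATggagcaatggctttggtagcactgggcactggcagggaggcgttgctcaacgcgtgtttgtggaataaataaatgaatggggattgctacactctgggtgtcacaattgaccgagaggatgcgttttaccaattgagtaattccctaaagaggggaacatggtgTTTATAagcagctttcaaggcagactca
Etnppl: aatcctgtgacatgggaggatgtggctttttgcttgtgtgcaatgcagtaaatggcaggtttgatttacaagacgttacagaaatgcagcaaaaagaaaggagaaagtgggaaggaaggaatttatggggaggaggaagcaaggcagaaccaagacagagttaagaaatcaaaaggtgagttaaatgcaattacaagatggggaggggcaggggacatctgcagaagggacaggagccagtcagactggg
Aldh1b1: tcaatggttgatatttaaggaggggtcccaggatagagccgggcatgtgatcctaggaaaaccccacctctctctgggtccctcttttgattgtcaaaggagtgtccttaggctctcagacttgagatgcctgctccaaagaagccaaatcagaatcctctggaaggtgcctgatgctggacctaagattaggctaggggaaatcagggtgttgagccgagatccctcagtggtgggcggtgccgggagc
Upp2: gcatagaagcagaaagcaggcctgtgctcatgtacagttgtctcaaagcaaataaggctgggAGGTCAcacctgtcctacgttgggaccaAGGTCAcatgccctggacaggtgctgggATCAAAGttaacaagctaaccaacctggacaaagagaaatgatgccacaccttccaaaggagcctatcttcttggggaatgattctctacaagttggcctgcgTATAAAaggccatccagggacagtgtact

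The TCF/LEF motif CTTTGAT was found 199 bases before the start of Hal and, on the other strand, 132 bases before the downstream start of Upp2, and 3.21% of 32851 promoters of the same length held it. The TATA box motif TATAAA, held by 12.4% of promoters, lay 28 bases before the start of Hal, on the other strand, and 29 before the downstream start of Upp2. The nuclear receptor motif AGGTCA, held by 14.0% of promoters, lay 188 and 160 bases before that start of Upp2 and 221 bases before the start of Cyp2f2. The E-box CACGTG, held by 6.02% of promoters, lay 71 bases before the start of Pigr. The cAMP response element core TGACG, held by 17.8% of promoters, and the FOXO site TGTTTAC, held by 3.17%, were in none of the 8 windows. None of the 6 motifs was in the windows of Etnppl, of Aldh1b1 or of the upstream start of Upp2. These are matches of letters, and the table does not separate the starts of Upp2 or Etnppl.

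The first question was how a high-fat diet bears on these genes, which HFD against NC mice answers. Of the 10 genes, 6 fell and 2 rose in HFD livers, and Cyp2f2 and Pigr did not pass the test. All 5 nitrogen-releasing enzymes fell. Etnppl fell most, to a level 4.86-fold lower than in NC mice. A gene passed where limma gave an adjusted p under 0.05 over all 10216 genes and a fold change over 1.2. By this rule 20.2% of all genes tested passed, 10.7% as higher and 9.49% as lower. These shares are the background for every count of listed genes in this comparison below. The median log2 fold change of the 10 genes was −0.81, beside −0.03 over all genes tested. With FPKM scaled to the same sum in every mouse, the split of all called genes moved from 1092 higher and 970 lower to 2100 and 334, the median of all genes to 0.15, and 5 of the 10 genes still fell, with a median of −0.61. The 6 HFD values lay wholly outside the 6 NC values for 3 of the 10 genes, Sdsl, Gls2 and Etnppl, as they did for 10.5% of all genes tested.

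**Figure D1:**
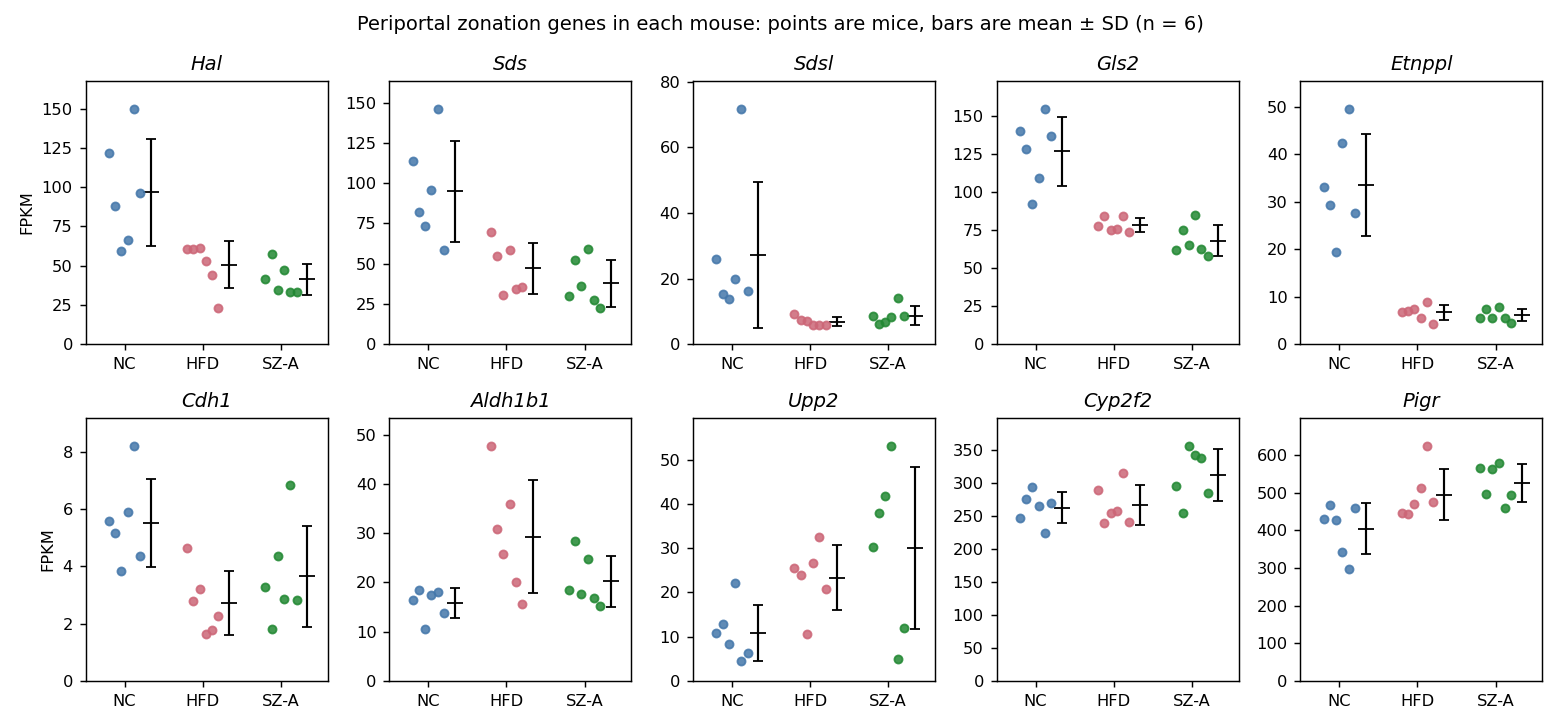
FPKM (vertical axes, from 0) of the 10 genes in each of 18 mice, in NC, HFD and SZ-A groups (horizontal axes). Each point is a mouse, and the bars beside the points are the mean ± SD (n = 6); the HFD and SZ-A points of Etnppl all lie below 9 FPKM while the NC points lie between 19.4 and 49.5 FPKM.

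Etnppl encodes ethanolamine-phosphate phospho-lyase, which breaks down phosphoethanolamine and releases ammonia. It lies on chromosome 3 (130617448 to 130637521, plus strand, GRCm38). Its FPKM had a lowest, median and highest value of 19.4, 31.2 and 49.5 in NC, 4.29, 6.91 and 8.87 in HFD and 4.50, 5.61 and 7.82 in SZ-A mice. The SZ-A range lay within the HFD range, and the NC range stood above both. The means were 33.5 ± 10.8 (SD, n = 6), 6.68 ± 1.58 and 6.10 ± 1.28 FPKM. The log2 fold change in HFD against NC was −2.28 ± 0.22 (SE), with a limma adjusted p of 4e-05. Among 8 tested genes of phosphoethanolamine metabolism, Etnppl included, 4 fell and 0 rose. Etnk2, an ethanolamine kinase that makes phosphoethanolamine, had a log2 fold change of −1.04 ± 0.12 (adjusted p = 0.000163), and Pcyt2, which turns it into CDP-ethanolamine on the way to phosphatidylethanolamine, had −0.66 ± 0.10 (adjusted p = 0.000741). Genes that make and that break down phosphoethanolamine were thus both among the 4, and the median of the 8 was −0.20.

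Sds and Sdsl encode serine dehydratase and a closely related protein. The former turns serine into pyruvate and ammonia, a route from amino acids to glucose. They are neighbors on chromosome 5, Sdsl on the minus strand (120458186 to 120472810) and Sds on the plus strand (120476526 to 120483932), with 3715 bases between their starts. Sds had a lowest, median and highest value of 58.6, 88.9 and 145.9 FPKM in NC, 30.2, 45.0 and 69.4 in HFD and 22.4, 33.3 and 58.9 in SZ-A mice. In 5 of 6 HFD mice Sds was below every NC mouse. The group means were 94.9 ± 31.2, 47.1 ± 16.0 and 38.0 ± 14.6 FPKM, and Sds fell by 1.02 ± 0.25 on the log2 scale in HFD against NC (adjusted p = 0.0108).

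Sdsl was scarcer than Sds in every mouse. Its lowest, median and highest values were 13.8, 18.02 and 71.6 FPKM in NC, 5.81, 6.41 and 9.29 in HFD and 6.09, 8.31 and 14.1 in SZ-A mice. The NC mice all lay above the HFD mice, and NC5, at 71.6 FPKM, lay far above the next NC mouse at 26.0 FPKM. The means were 27.1 ± 22.2, 6.85 ± 1.36 and 8.67 ± 2.83 FPKM. The log2 fold change in HFD against NC was −1.72 ± 0.33 (adjusted p = 0.00302), and without NC5 it was −1.38 (adjusted p = 3e-04). The ratio of Sds to Sdsl FPKM within a mouse had a median of 4.6 in NC (2.04 to 5.42), 6.76 in HFD (4.36 to 10.1) and 4.5 in SZ-A mice (1.96 to 8.62), so the neighboring genes did not keep a fixed ratio. Of 6 tested genes of serine metabolism, Sds and Sdsl included, 3 fell and 1 rose. Agxt, an aminotransferase that uses serine and alanine as amino donors, had a log2 fold change of −1.25 ± 0.19 (adjusted p = 0.000751). Shmt2, the mitochondrial serine hydroxymethyltransferase, had 0.42 ± 0.08 (adjusted p = 0.00271).

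Gls2 encodes liver-type glutaminase, which releases ammonia from glutamine at the periportal end of the lobule. It lies on chromosome 10 (128194457 to 128210004, plus strand). In NC mice the lowest, median and highest level of Gls2 was 92.1, 132.9 and 154.7 FPKM, beside 73.6, 76.7 and 84.7 in HFD and 57.9, 64.1 and 85.2 in SZ-A mice. HFD mice lay below every NC mouse and were close to each other, with an SD of 4.80 FPKM around a mean of 78.5, against 127 ± 22.8 FPKM in NC. The log2 fold change in HFD against NC was −0.67 ± 0.11 (adjusted p = 0.00139), the smallest among the 6 genes that fell. Glul, the pericentral glutamine synthetase that works in the opposite direction, rose by 0.62 ± 0.09 on the log2 scale (adjusted p = 0.000762). Among 8 tested genes of glutamine and glutamate metabolism, Gls2 and Glul included, 3 fell and 1 rose. Of these, Got1, the cytosolic aspartate aminotransferase, had the smallest adjusted p (log2 fold change −2.27 ± 0.26, adjusted p = 0.000157).

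Hal encodes histidine ammonia-lyase, which takes the first step of histidine breakdown. It lies on chromosome 10 (93488768 to 93519304, plus strand), and its promoter is shown above. Hal had a lowest, median and highest value of 59.3, 92.0 and 149.7 FPKM in NC, 23.2, 56.8 and 61.6 in HFD and 33.4, 37.9 and 57.6 in SZ-A mice. In 3 HFD mice Hal was below every NC mouse, and the other three reached just past the lowest NC mouse. The means were 96.9 ± 34.1, 50.5 ± 15.01 and 41.3 ± 9.73 FPKM, and Hal fell by 0.94 ± 0.27 on the log2 scale in HFD against NC (adjusted p = 0.0256). Of 25 alternative settings, 6 lost this call, with an adjusted p of up to 0.0817, and the direction held in all 25. Without NC1 alone the adjusted p was 0.0532. Of 5 tested histidine genes, Hal included, 3 fell and 0 rose. Amdhd1, which acts later in the same pathway, had a log2 fold change of −0.73 ± 0.16 (adjusted p = 0.00708). Hdc, which makes histamine from histidine, was low, at 1.33 ± 0.37 FPKM in HFD and 2.26 ± 0.59 in NC mice, and had a log2 fold change of −0.72 ± 0.19 (adjusted p = 0.0184).

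Cdh1 encodes E-cadherin, a cell adhesion protein found on periportal hepatocytes and on bile duct cells. It lies on chromosome 8 (106603351 to 106670246, plus strand) and was the least abundant of the 10 genes, with 150 to 608 fragments per mouse. Cdh1 had a lowest, median and highest value of 3.83, 5.36 and 8.21 FPKM in NC, 1.65, 2.53 and 4.65 in HFD and 1.80, 3.06 and 6.84 in SZ-A mice. In 5 of 6 HFD mice Cdh1 was below every NC mouse, and HFD1 lay among the NC mice. The means were 5.51 ± 1.53, 2.72 ± 1.11 and 3.66 ± 1.76 FPKM, and the log2 fold change in HFD against NC was −1.04 ± 0.24 (adjusted p = 0.00843). Bile duct markers summed to 15.7 to 44.5 FPKM in NC and 24.7 to 48.9 in HFD mice, and of the 3 of 9 that were tested 0 passed. Of 8 tested genes of adherens junctions, Cdh1 was the only gene that passed in HFD against NC. Their median log2 fold change was −0.10.

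Aldh1b1 and Upp2 rose in HFD mice. Aldh1b1 encodes a mitochondrial aldehyde dehydrogenase and lies on chromosome 4 (45799022 to 45804604, plus strand). Its lowest, median and highest values were 10.5, 17.0 and 18.5 FPKM in NC, 15.7, 28.2 and 47.7 in HFD and 15.2, 18.1 and 28.5 in SZ-A mice. In 5 of 6 HFD mice it was above every NC mouse. The means were 15.8 ± 3.09, 29.3 ± 11.6 and 20.3 ± 5.22 FPKM, and the log2 fold change in HFD against NC was 0.82 ± 0.24 (adjusted p = 0.0267). Among 10 tested genes of aldehyde and alcohol oxidation, Aldh1b1 included, 5 rose and 0 fell. The 3 with the smallest adjusted p were Aldh1a1, a cytosolic retinaldehyde dehydrogenase, at 0.99 ± 0.17 (adjusted p = 0.00187), and the alcohol dehydrogenases Adh1, at 1.09 ± 0.21 (adjusted p = 0.00299), and Adh4, at 0.95 ± 0.26 (adjusted p = 0.0209), all log2 fold changes.

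Upp2 encodes a liver uridine phosphorylase, which splits uridine into uracil and ribose phosphate. It lies on chromosome 2 (58567298 to 58792971, plus strand). Its lowest, median and highest values were 4.55, 9.58 and 22.1 FPKM in NC, 10.7, 24.7 and 32.5 in HFD and 4.97, 34.04 and 53.1 in SZ-A mice. In 4 of 6 HFD mice Upp2 was above every NC mouse. The means were 10.8 ± 6.28, 23.3 ± 7.33 and 30.0 ± 18.4 FPKM, and Upp2 varied most of the 10 genes among SZ-A mice, with a 10.7-fold span. The log2 fold change in HFD against NC was 1.21 ± 0.35 (adjusted p = 0.0256). The calls of Aldh1b1 and Upp2 were each lost in 5 of 25 alternative settings, with an adjusted p of up to 0.0825 and 0.0831. Among the single mice, the call of Upp2 was lost without NC6 (adjusted p = 0.0503), HFD1 (0.0510) or HFD4 (0.0532), and that of Aldh1b1 without NC3 (0.0565), HFD2 (0.0548) or HFD4 (0.0597). Of 10 tested genes of pyrimidine breakdown and salvage, Upp2 included, 5 rose and 1 fell. Upp1, the other uridine phosphorylase, had a log2 fold change of 1.06 ± 0.20 (adjusted p = 0.00276) from 0.843 ± 0.262 to 1.84 ± 0.43 FPKM. Dpyd and Dpys catalyze successive steps of uracil breakdown. Dpyd had −0.42 ± 0.09 (adjusted p = 0.00735) and Dpys 0.31 ± 0.08 (adjusted p = 0.0186).

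Cyp2f2 and Pigr were the most abundant of the 10 genes and ranked 178 and 111 among all genes by mean FPKM. Cyp2f2 encodes a cytochrome P450 monooxygenase that is widely used as a periportal marker, and it lies on chromosome 7 (27119909 to 27133660, plus strand). Its lowest, median and highest values were 224.8, 267.8 and 293.5 FPKM in NC, 239.4, 256.4 and 314.9 in HFD and 254.8, 316.6 and 356.2 in SZ-A mice. NC and HFD mice lay in much the same range. The log2 fold change in HFD against NC was 0.02 ± 0.09, with a 95% confidence interval of −0.18 to 0.22 and an adjusted p of 0.924. Its sign was negative in 4 of 25 alternative settings.

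Pigr encodes the polymeric immunoglobulin receptor, which carries IgA across hepatocytes and bile duct cells into bile. It lies on chromosome 1 (130826684 to 130852249, plus strand). Pigr ran over a lowest, median and highest value of 298.3, 428.5 and 468.1 FPKM in NC, 442.3, 471.7 and 624.5 in HFD and 458.7, 530.3 and 578.1 in SZ-A mice. In 4 of 6 HFD mice Pigr was above every NC mouse. The log2 fold change in HFD against NC was 0.30 ± 0.13 (95% confidence interval 0.03 to 0.57), which did not pass after adjustment (adjusted p = 0.110). Of 5 tested genes of IgA and its transport, Pigr included, only Igha, the IgA heavy chain, passed in HFD against NC. Igha was at 2.71 ± 0.87 FPKM in NC and 1.22 ± 0.49 in HFD mice, a log2 fold change of −1.11 ± 0.23 (adjusted p = 0.00504).

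**Figure D2:**
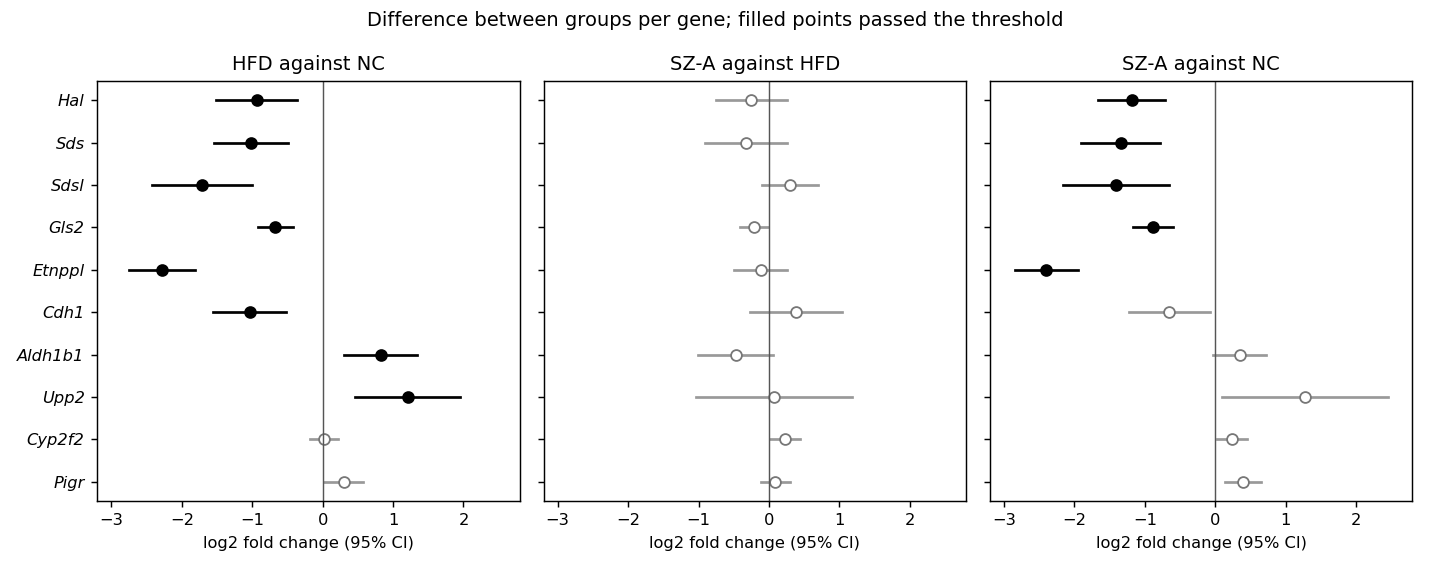
Log2 fold change (horizontal axes) with its 95% confidence interval (lines) for each gene (vertical axis) in 3 comparisons, from limma fits of 6 against 6 mice. Filled points passed the threshold: 8 genes in HFD against NC, 0 in SZ-A against HFD and 5 in SZ-A against NC, all 5 of them lower.

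The second question was whether SZ-A changed these genes in mice on the high-fat diet. None of the 10 genes passed the test in SZ-A against HFD, where 0.147% of all genes tested passed. The authors, who used DESeq2, reported more genes for this comparison at the same thresholds. Before adjustment, 2 of the 10 had a p under 0.05, Cyp2f2 and Gls2, beside 14.8% of all genes tested. The median log2 fold change of the 10 genes was −0.03, with 5 positive and 5 negative, and the median over all genes tested was 0.03. SZ-A and HFD ranges overlapped for all 10 genes, while 1.28% of all genes tested had ranges apart. Voom on whole fragments also called 0 of the 10, and 26 of all 10216 genes tested.

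The intervals set how large a difference the comparison would still allow. For Cyp2f2 the log2 fold change in SZ-A against HFD was 0.23 (95% confidence interval 0.01 to 0.44, adjusted p = 0.321), and 3 SZ-A mice lay above every HFD mouse. For Gls2 it was −0.21 (−0.41 to −0.02, adjusted p = 0.298), and 4 SZ-A mice lay below every HFD mouse. Gls2 was thus further from the NC mean in SZ-A than in HFD mice, by a difference that did not pass.

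The remaining nitrogen-releasing enzymes had intervals that spanned 0. For Etnppl the interval was −0.49 to 0.26 around −0.12, narrow beside its change of −2.28 in HFD against NC. For Hal it was −0.75 to 0.25 around −0.25, and for Sds −0.90 to 0.26 around −0.32. Single mice moved these values: Etnppl was −0.03 without HFD5 and −0.24 without HFD6, Hal −0.46 without HFD6 and Sds −0.19 without SZ-A6. Sdsl had 0.30 (−0.09 to 0.70). In Sdsl the highest SZ-A mouse, SZ-A5, was at 14.1 FPKM and the next at 8.55, and without SZ-A5 the value was 0.15 (adjusted p = 0.648).

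Aldh1b1 was lower in SZ-A than the HFD mean in all 6 mice, yet only 1 mouse lay below the HFD range, and its log2 fold change of −0.47 (−1.01 to 0.06, adjusted p = 0.393) did not pass and was −0.32 without HFD1. Cdh1 had 0.38 (−0.27 to 1.04), which was 0.18 without SZ-A5, the mouse with the highest Cdh1 of its group. Pigr had 0.09 (−0.12 to 0.30), and 0.16 without HFD5. Upp2 had 0.07 with the widest interval of the 10, −1.04 to 1.17. In SZ-A5 and SZ-A6 Upp2 was at 4.97 and 12 FPKM, and in the other four between 30.2 and 53.1 FPKM. Beside the HFD range of 10.7 to 32.5 FPKM, 3 SZ-A mice lay above it, 1 below and 2 within. Without SZ-A5 the log2 fold change of Upp2 was 0.50 (adjusted p = 0.550). A p that misses the threshold does not show that the groups were alike.

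SZ-A against NC mice shows where the treated mice stood relative to normal livers. It shares the NC mice with HFD against NC, so the 2 comparisons are not independent. In SZ-A mice 5 of the 10 genes passed, Hal, Sds, Sdsl, Gls2 and Etnppl, and all 5 were lower than in NC, where 9.6% of all genes tested passed and 4.3% passed as lower. These are the 5 nitrogen-releasing enzymes. The log2 fold changes were −2.40 ± 0.21 for Etnppl (adjusted p = 6.59e-05), −1.41 ± 0.35 for Sdsl (adjusted p = 0.0236) and −1.34 ± 0.26 for Sds (adjusted p = 0.00756). For Hal the value was −1.19 ± 0.22 (adjusted p = 0.00615), and for Gls2 −0.89 ± 0.13 (adjusted p = 0.002). Etnppl, Gls2 and Hal, 3 of the 10 genes, had SZ-A values wholly below the NC values, beside 5.5% of all genes tested that had the ranges apart in either direction.

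Cdh1, Aldh1b1 and Upp2, which passed in HFD against NC, did not pass in SZ-A against NC. Their log2 fold changes were −0.65 (adjusted p = 0.142), 0.35 (adjusted p = 0.231) and 1.27 (adjusted p = 0.162). The value of Upp2 was close to the 1.21 of HFD against NC, with an SE of 0.55 instead of 0.35. Pigr had 0.39 (adjusted p = 0.0550) and Cyp2f2 0.24 (adjusted p = 0.143). The count of 5 rested on SZ-A5: without this mouse 8 of the 10 genes passed, with Cdh1 (−0.85, adjusted p = 0.0260), Pigr (0.43, adjusted p = 0.0406) and Upp2 (1.71, adjusted p = 0.0220) added.

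**Figure D3:**
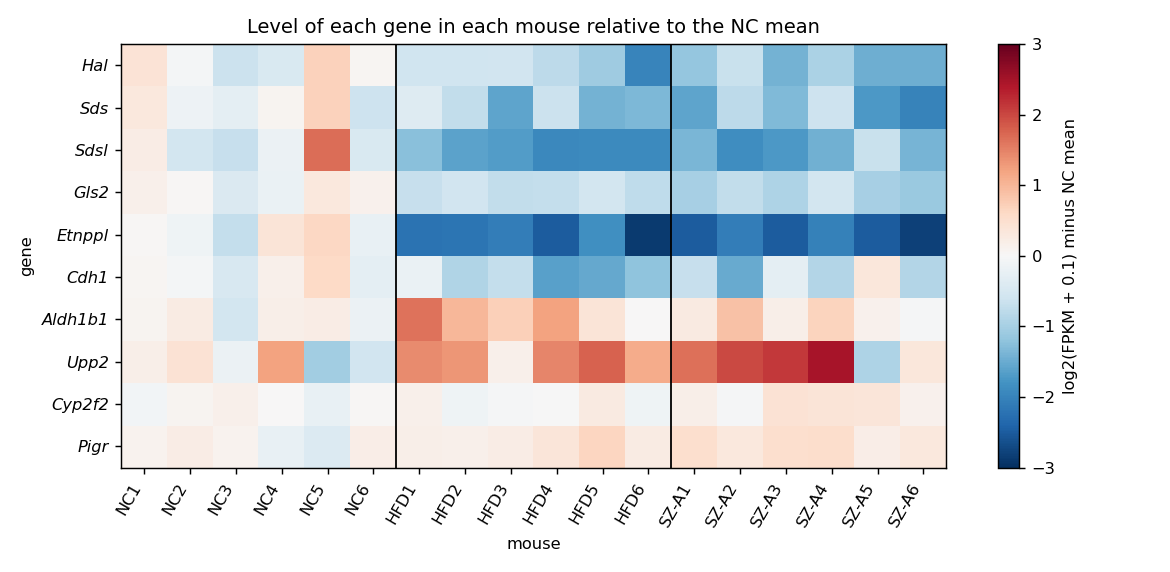
Each cell is the log2(FPKM + 0.1) of a gene (rows) in a mouse (columns) minus the NC mean of that gene, in blue below 0 and red above, with black lines between NC, HFD and SZ-A mice. Etnppl is blue in all 12 mice on the high-fat diet, and SZ-A5 differs from the other SZ-A mice in Sdsl, Cdh1 and Upp2.

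The same pattern could be read within each mouse, as the median of the 10 genes relative to the NC mean. It ran from −0.46 to 0.46 on the log2 scale in NC mice, from −0.99 to −0.29 in HFD mice and from −1 to −0.59 in SZ-A mice. The medians of the groups were 0.02, −0.67 and −0.75. NC and HFD mice overlapped in this median, and every SZ-A mouse was below every NC mouse. NC5 had the highest level of its group for all 6 genes that fell in HFD mice, and the lowest for Cyp2f2, Pigr and Upp2. NC3 had the lowest level of its group for Hal, Sdsl, Gls2, Etnppl, Cdh1 and Aldh1b1.

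How the genes varied together was described over 18 mice by Pearson's r between deviations from the group means, with no test, since all values come from the same libraries. Of 45 pairs, 30 were positive and 11 were over 0.5, with a median of 0.18 and a range of −0.70 to 0.78. Hal, Sds, Gls2, Etnppl and Aldh1b1 were positive in all 10 of their pairs, from 0.47 to 0.78 (Spearman's rho 0.45 to 0.81), and from 0.43 to 0.79 without NC5. Aldh1b1, which rose in HFD mice, was among them with genes that fell. Its r was 0.78 with Sds and 0.74 with Hal. Without the 2 mice farthest from the median of the first-named gene, the 10 pairs stayed positive. They then ran from 0.30 (Gls2 with Aldh1b1) to 0.79 (Sds with Aldh1b1), with 0.35 for Sds with Gls2 and 0.36 for Sds with Etnppl. Within the 6 mice of a group the pairs of these 5 genes ran from 0.46 to 0.95 among NC mice, between −0.11 and 0.84 among HFD mice and between 0.77 and 0.97 among SZ-A mice. The lowest in HFD mice were Sds with Etnppl (−0.11), Gls2 with Aldh1b1 (0.07) and Sds with Gls2 (0.11). Sdsl went with Cdh1 (0.69, and 0.77 without NC5) and against Pigr (−0.70, but −0.47 without NC5 and −0.41 without the 2 mice farthest from the median).

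**Figure D4:**
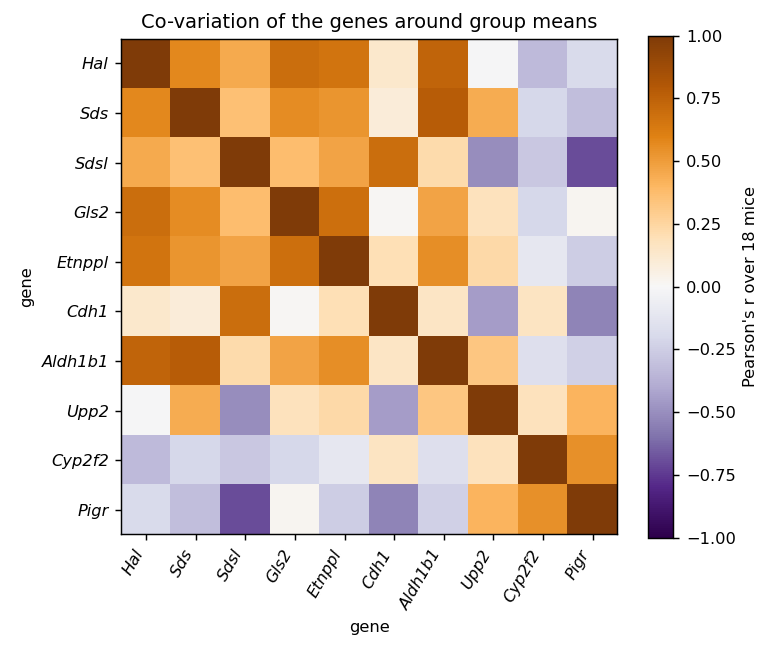
Pearson's r (color, from −1 to 1) between log2(FPKM + 0.1) deviations from the group means over 18 mice, for each pair of the 10 genes on both axes. Hal, Sds, Gls2, Etnppl and Aldh1b1 share positive values of 0.47 to 0.78, and Sdsl and Pigr have −0.70.

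Other periportal genes, 15 in a list that shares no gene with the 10, were compared in the same fits. In HFD against NC 10 of 15 fell and 1 rose, where 9.49% of all genes tested fell and 10.7% rose. The median log2 fold change of the 15 was −0.83. The 3 with the smallest adjusted p were the ureagenesis enzymes Asl (−1.999 ± 0.23, adjusted p = 0.000152) and Cps1 (−1.40 ± 0.16, adjusted p = 0.000152) and the gluconeogenic enzyme Pck1 (−1.15 ± 0.15, adjusted p = 0.000253). In SZ-A against HFD 0 of the 15 passed by limma, where 0.147% of all genes tested passed. Of the 15, 6 had an unadjusted p under 0.05, beside 14.8% of all genes tested, and the median was 0.12. With the same FPKM sum in every mouse 2 passed, and with sample weights 1. In SZ-A against NC 8 fell and 1 rose, where 4.3% of all genes tested fell and 5.31% rose.

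Pericentral genes, of which 14 of 15 passed the filter, did not move as a block. In HFD against NC 4 rose and 2 fell, where 10.7% of all genes tested rose and 9.49% fell. The median log2 fold change of the 14 was 0.19. Besides Glul, Gulo, a mouse enzyme of ascorbate synthesis, rose by 0.73 ± 0.11 (adjusted p = 0.00085) and the cytochrome P450 gene Cyp2a5 by 1.91 ± 0.30 (adjusted p = 0.000917), both on the log2 scale. In SZ-A against HFD 0 passed by limma, with 3 at an unadjusted p under 0.05, beside 14.8% of all genes tested. With the same FPKM sum in every mouse 1 passed. In SZ-A against NC 3 rose and 1 fell, 4 in all, beside 9.6% of all genes tested. The count of 4 became 7 without SZ-A5. Per mouse, the pericentral median relative to NC ran from −0.08 to 0.54 on the log2 scale in HFD and from −0.22 to 0.49 in SZ-A mice, and the other periportal median from −1.11 to −0.38 and from −0.92 to −0.51.

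**Figure D5:**
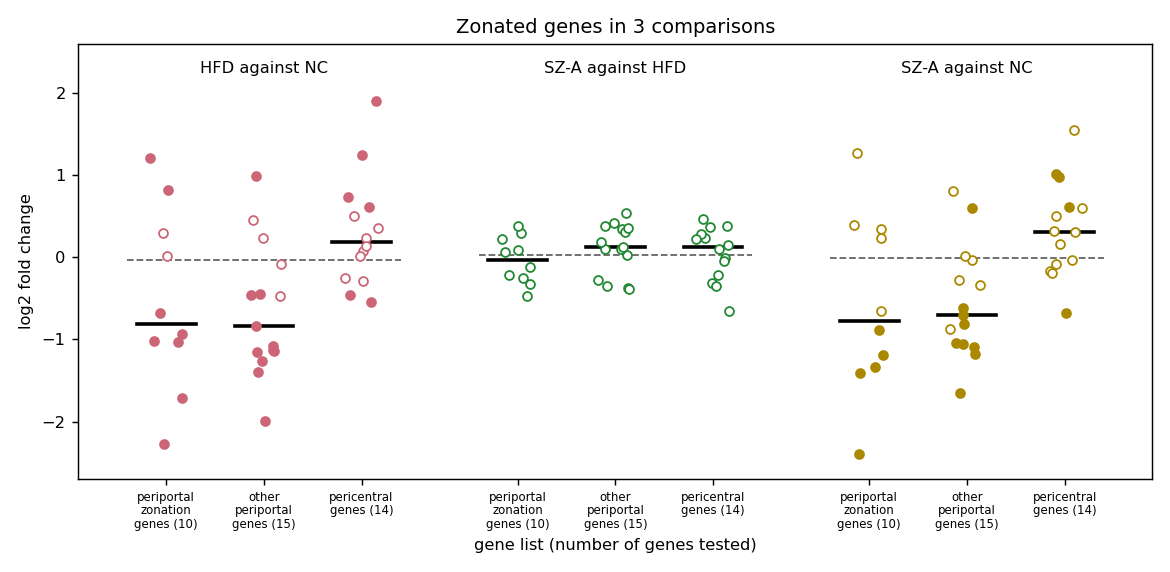
Log2 fold change (vertical axis) of each tested gene in 3 gene lists (horizontal axis), for HFD against NC, SZ-A against HFD and SZ-A against NC. Filled points passed the test, black bars are list medians (−0.81, −0.83 and 0.19 in HFD against NC) and dashed lines the median of all 10216 genes tested.

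Genes of the signals that are known to act on zonation were given by the same rule. In HFD against NC 9.49% of all genes tested fell and 10.7% rose. Of 11 glucagon and fasting response genes, 5 fell and 0 rose there, with a median log2 fold change of −0.46. Besides Pck1, these included Tat, a tyrosine aminotransferase (−1.47 ± 0.28, adjusted p = 0.00297), and G6pc, the catalytic subunit of glucose-6-phosphatase (−1.26 ± 0.38, adjusted p = 0.0305). Pck1 and G6pc are also in the list of other periportal genes. In SZ-A against HFD 0 of the 11 passed, with a median of 0.20. Of the 11, 4 had an unadjusted p under 0.05, beside 14.8% of all genes tested. Of 12 tested genes listed for Wnt/β-catenin signaling, Hnf4a included, 0 passed in HFD against NC by limma. Of the 12, 2 had an unadjusted p under 0.05, beside 34.8% of all genes tested, and the median was −0.01. Axin2 and Rnf43 of this list are also among the pericentral genes. Among all the lists of processes given here, only Pcyt2 passed in SZ-A against HFD, at 65.2 ± 4.38 FPKM in SZ-A and 47.4 ± 3.87 in HFD mice (log2 fold change 0.46 ± 0.07, adjusted p = 0.0298). Among the lists of cell markers Cd68, a macrophage marker, passed there (−0.64 ± 0.11, adjusted p = 0.0451), and it was named after its values were seen. Igha was at 3.64 ± 2.79 FPKM in SZ-A mice, a log2 fold change of 1.35 ± 0.33 against HFD that did not pass (adjusted p = 0.102).

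Reads of overlapping genes could touch 4 of the 10 genes, since strand use in the counting is not given in the sources used here. Sds overlaps Plbd2 (11.6 to 17.0 FPKM over the mice) and the antisense gene Gm15690 (0.65 to 8.55 FPKM) on the opposite strand. Gls2 overlaps Spryd4 (10.9 to 28.8 FPKM) on the opposite strand. Cyp2f2 overlaps the antisense gene Gm15883, which reached 3.36 FPKM, and Upp2 holds Gm13559 and Gm13558, which reached 0.128 and 0.203 FPKM.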

How the data were processed

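RNA-seq was made from the livers of 18 mice. The authors purified poly-A RNA, built libraries with the NEBNext Ultra kit and deposited 1 table of FPKM. The submitters' processing notes name HISAT2 2.0.5, featureCounts 1.5.0-p3 and the build mm10 (GRCm38). FPKM times gene length gave whole fragments for 100% of values (tolerance 0.05), 17163191 to 20493907 per mouse. The spread between mice includes the counting error of these fragments. The total behind the FPKM was these fragments times a factor per mouse, 0.9325 to 1.0248 for NC, 0.9983 to 1.1414 for HFD and 0.9718 to 1.0468 for SZ-A. How it was set is not given in the sources used here, and median-ratio scaling left the median of all genes at −0.0332 in HFD against NC, beside −0.0334.

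Groups came from sample titles. Values were fitted with limma 3.58.1 (R 4.3.3) as log2(FPKM + 0.1), with 6 against 6 mice per comparison, no covariates and a trended variance. The log2 scale with a pseudocount understates the change of low genes. Genes with a mean of at least 1 FPKM entered, Benjamini-Hochberg adjustment ran over all of them, and the threshold was an adjusted p under 0.05 with more than 1.2-fold change. All tests were two-sided. The 10 genes were all named, and from each other list at most 3 called genes by smallest adjusted p. The genes and lists were chosen with earlier results of these data known. The alternatives were other pseudocounts, filters, scalings, thresholds and variance models, voom, all 18 mice in 1 fit, a replicate block and leaving out each mouse. The fit was tested on simulated data. The authors' differential expression results were not used in these fits.

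No mouse was a copy of another: the lowest chi-square per degree of freedom over 45 pairs of mice within groups was 25.7. Nothing but the labels says that mice are separate animals, and p-values measure the spread between these samples.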

Additional observations from a re-analysis of the deposited data

Results flagged for a closer look

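In 30 groups of 6 values (10 genes in 3 groups), 2 values lay apart from the other five of their group by Dixon's criterion, which chance meets in about 1 of 20 groups. Both were of Sdsl, the serine dehydratase-like gene. The mouse NC5 had 71.6 FPKM, against 26.0 in the next NC mouse, a gap that was 0.789 of the range of the group. The mouse SZ-A5 had 14.1 FPKM, against 8.55 in the next SZ-A mouse, a gap that was 0.692 of the range. Both mice also had the highest Cdh1 of their group, at 8.21 and 6.84 FPKM, and the lowest Pigr and Upp2. The cause was not tested.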

How the results depend on the processing

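In HFD against NC the 8 genes called became 5 with a fold change over 2 (fewer genes can pass) and 5 with no filter on low values (more genes in the adjustment), and leaving out each mouse gave 6 to 8. In SZ-A against HFD the count was 0 in every alternative, including 0 to 0 when leaving out each mouse. Few of all genes tested were called in that comparison. The number was 15 of 10216 in the main fit and 0 with no filter or with the replicate block. It was 2 to 49 when leaving out each mouse, 216 with the same FPKM sum in every mouse and 233 with sample weights. With so few calls, a count of 0 in most settings says little about these genes. In SZ-A against NC leaving out each mouse gave 4 to 8 beside 5. Etnppl, Sds and Sdsl kept their call in HFD against NC in all 25 alternatives and Cdh1 in the 24 it could enter, since its mean is below the stricter filter.

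Values that changed sign were small. In HFD against NC the log2 fold change of Cyp2f2 was −0.063 with sample weights, and −0.034 to 0.049 when leaving out each mouse (negative without NC5, HFD1 or HFD5). In SZ-A against HFD, scaling every mouse to the same FPKM sum gave −0.086 for Pigr and −0.11 for Upp2. Leaving out each mouse gave −0.17 to 0.50 for Upp2, with negative values without HFD3 or any of SZ-A1 to SZ-A4. The cause was not tested. With the same FPKM sum in every mouse, the median of all genes was 0.15 in HFD against NC and −0.15 in SZ-A against HFD and the calls were 2100 higher and 334 lower in the former (1092 and 970 otherwise) and 10 higher and 206 lower in the latter. With it, Pigr was called in HFD against NC (0.49, adjusted p = 0.0208) and Hal was not (adjusted p = 0.0533). In SZ-A against HFD 2 other periportal genes and 1 pericentral gene were called with it, and 1 other periportal gene with sample weights. The number of all genes called in SZ-A against HFD ran from 0 with no filter on low values to 233 with sample weights.

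With the replicate number as a block, 7 of the 10 genes passed in HFD against NC, 0 in SZ-A against HFD and 6 in SZ-A against NC, with Hal lost in the first (adjusted p = 0.0501) and Upp2 added in the last (adjusted p = 0.0172). The labels do not say that same-numbered mice are paired. Over 18 pairs of same-numbered mice the correlation of deviations ran from −0.12 to 0.29, with 3 over 0.1. In 5 of the 18 the same-numbered mouse had the highest correlation of its group. These values cannot show whether same-numbered mice shared a cage or batch. The pericentral count in SZ-A against NC, 4, was 7 with the block, 7 with sample weights and 7 without SZ-A5. Cdh1 and Sdsl rest on the fewest fragments, from 150 and 163 per mouse.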
